A study of Mus musculus with 12 samples.

Results

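Axin2, Lgr5, Tbx3, Rnf43 and Znrf3, 5 genes known as targets of Wnt/beta-catenin signalling, and Lect2, Slc1a2, Rgn, Rhbg and Gulo, 5 genes listed with the hepatocytes around the central vein that encode no cytochrome P450, were followed in the livers of mice that received CCl4 (carbon tetrachloride), a hepatotoxic solvent. The genes were chosen by symbol, and all 10 were found, as 10 of the 57180 gene rows of the deposited table. The liver groups were 3 libraries of CCl4-treated and 3 of vehicle-treated C57 mice, sequenced as bulk RNA. The sample labels name liver and the design text names hepatocytes; the labels are followed here. The skin groups were 3 libraries of CCl4-treated and 3 of vehicle-treated Cx3cr1-creER:Ai9 mice, and hold CX3CR1+ cells of dorsal skin profiled by smart-seq, which amplifies full-length cDNA of small samples. Both skin groups carry an inducible Cre recombinase driven by Cx3cr1 regulatory sequence and the Ai9 reporter allele, which Cre switches on, and the liver mice are not labelled with either. The sources used here give neither the dose, route and timing of CCl4, nor the induction of Cre, nor the animals' sex and age.

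In the liver lobule, Wnt ligands and R-spondins made mainly by endothelial cells of the central vein keep beta-catenin active in the nearest hepatocytes. Beta-catenin with TCF/LEF factors then drives pericentral genes, among them genes of glutamine and xenobiotic metabolism, and feedback genes that damp the signal. Hepatocytes around the portal vein, where blood enters, use urea cycle and gluconeogenic genes instead. CCl4 is activated by a cytochrome P450 of pericentral hepatocytes and is a standard way to injure that zone.

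Values are TPM, transcript abundances scaled for transcript length and to the same total in every library. They hold no read depth, so depth is unknown and no counting interval can be given. In the liver libraries, mitochondrially encoded genes and their near-copy pseudogenes held 68.1 to 82.1% of the TPM with CCl4 and 25.7 to 28.4% with vehicle, so every other gene shared a smaller remainder in the CCl4 libraries. The summed TPM of 12 plasma protein genes of hepatocytes was 16077 to 38212 in the CCl4 livers and 76805 to 83853 in the vehicle livers. The summed TPM of 12 endothelial markers was 170 to 535 in the CCl4 livers and 30.4 to 35.5 in the vehicle livers, and that of 12 macrophage markers 201 to 641 against 35.4 to 85.9. In bulk tissue, fewer cells of a type and less RNA per cell cannot be told apart. In skin, Cx3cr1 itself stood at 5.28, 0 and 0.28 TPM in the CCl4 libraries and at 3.91, 0.27 and 0.91 TPM in the vehicle libraries, while 8 keratinocyte and hair follicle markers summed to 959 to 3399 TPM with CCl4 and 1185 to 2892 TPM with vehicle. All 7 markers listed for the sorted cells, Cx3cr1 included, summed to 481, 338 and 26.5 TPM in the CCl4 skin libraries and to 912, 2272 and 917 TPM in the vehicle skin libraries. Where Cx3cr1 was near 0, Csf1r, Ptprc and Adgre1 differed widely. They stood at 483, 243 and 767 TPM in vehicle replicate 2 and at 36.9, 29.7 and 63.6 TPM in CCl4 replicate 2. In CCl4 replicate 3 they stood at 2.12, 18.4 and 1.65 TPM. Keratinocyte transcripts were present in every skin library. So were transcripts of skin fibroblasts, of which 5 markers summed to 353 to 4044 TPM with CCl4 and 1501 to 5968 TPM with vehicle.

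All 10 genes had a lower mean TPM in the CCl4 livers than in the vehicle livers. Slc1a2, Rgn, Gulo, Tbx3 and Rhbg fell, while Axin2, Rnf43 and Lect2 did not pass the test and Lgr5 and Znrf3 were too low to enter it. A gene was tested with limma on log2(TPM + 1) where at least 3 of the 6 libraries reached a TPM of 1, and a call is a p under 0.05 after Benjamini-Hochberg adjustment over all genes tested. Of the 8 genes tested, limma thus called 5 lower and 0 higher, and at an unadjusted p under 0.05 it was 6 lower and 0 higher. At that unadjusted threshold, 5726 of all 10385 genes tested were lower and 1129 higher. Of all 10385 genes tested, 61.4% were called, 51.1% lower and 10.3% higher, and the 8 genes' share of falls is near that background. The ranges of the CCl4 and vehicle groups were apart for 5 of the 10 genes, against 70.2% of all genes tested. The median log2 change of the 8 genes was -0.90, beside -0.59 for all genes.

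**Figure D1:**
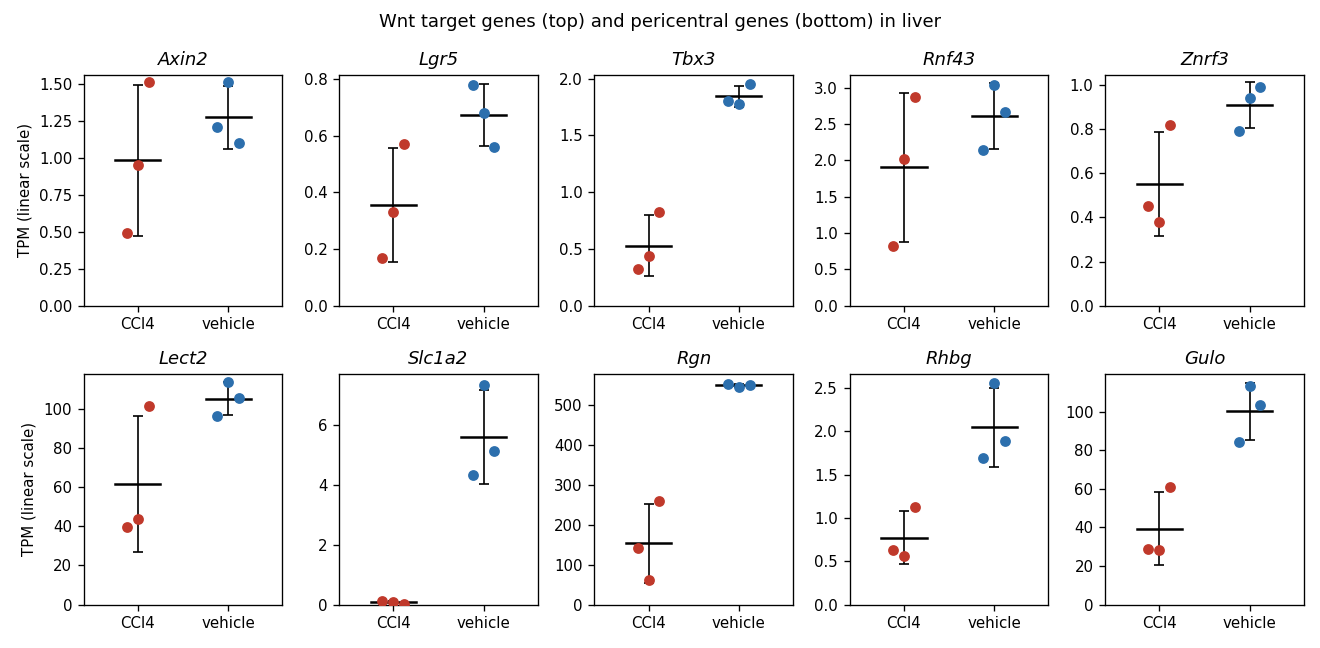
TPM of the 10 genes in each liver library on linear axes that start at 0, with CCl4 (red) left of vehicle (blue). Points are libraries, the bar is the mean and the whiskers are the SD (n = 3 each). The groups are apart for Tbx3, Slc1a2, Rgn, Rhbg and Gulo and overlap for Axin2, Lgr5, Rnf43, Znrf3 and Lect2.

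The feedback genes of the pathway were low in liver and varied widely among the CCl4 libraries. Axin2 (ENSMUSG00000000142), a scaffold of the complex that degrades beta-catenin and a standard readout of the pathway, had 0.49, 0.95 and 1.51 TPM in the CCl4 livers, against 1.21, 1.51 and 1.10 TPM in the vehicle livers. The lowest CCl4 library lay under all vehicle libraries and the highest reached the top vehicle value, so the groups overlapped. Its log2 change was -0.23 ± 0.21 (SE), with a 95% confidence interval of -0.69 to 0.24 and a limma adjusted p of 0.365.

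Rnf43 and Znrf3 encode paralogous membrane ubiquitin ligases that remove Frizzled receptors from the cell surface. Rnf43 (ENSMUSG00000034177) had 0.82, 2.02 and 2.87 TPM in the CCl4 livers, against 2.14, 3.04 and 2.66 TPM in the vehicle livers. CCl4 replicate 1 was the lowest of the 6 and CCl4 replicate 3 stood among the vehicle libraries, and the log2 change was -0.38 ± 0.26 (SE; 95% interval -0.95 to 0.20; limma adjusted p = 0.226). Znrf3 (ENSMUSG00000041961) had 0.45, 0.38 and 0.82 TPM in the CCl4 livers, against 0.79, 0.94 and 0.99 TPM in the vehicle livers. The highest CCl4 library just exceeded the lowest vehicle library. No library reached a TPM of 1, so Znrf3 has an exact permutation test only, with a difference of -0.31 on the log2(TPM + 1) scale (two-sided exact permutation p = 0.2; the smallest that 3 against 3 allows is 0.1).

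Lgr5 and Tbx3 mark cells with high Wnt activity. Lgr5 (ENSMUSG00000020140), a receptor for R-spondins, had 0.17, 0.33 and 0.57 TPM in the CCl4 livers, against 0.78, 0.68 and 0.56 TPM in the vehicle livers. It was the least abundant of the 10 genes in the vehicle livers, and the top CCl4 library just exceeded the bottom vehicle library (difference -0.31 on the log2 scale, exact permutation p = 0.2). Tbx3 (ENSMUSG00000018604), a T-box transcription factor, had 0.32, 0.44 and 0.83 TPM in the CCl4 livers, against 1.80, 1.78 and 1.95 TPM in the vehicle livers. All CCl4 libraries were below all vehicle libraries, and Tbx3 fell by 0.91 ± 0.18 on the log2 scale (SE; limma adjusted p = 0.00172). Tbx3 entered the test through its vehicle libraries alone, as did Slc1a2, and a gene that passes in that way has to be lower with CCl4, so their calls count for less than their values.

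Among the pericentral genes, the glutamate transporter Slc1a2 (ENSMUSG00000005089; also called GLT-1), which takes up glutamate into the hepatocytes that make glutamine, was close to 0 after CCl4. It had 0.11, 0.09 and 0.03 TPM in the CCl4 livers, against 4.32, 7.35 and 5.14 TPM in the vehicle livers. The highest CCl4 library lay far below the lowest vehicle library, and the mean was 73.1-fold lower with CCl4. Slc1a2 fell by 2.59 ± 0.20 on the log2(TPM + 1) scale (SE; 95% interval -3.03 to -2.15; limma adjusted p = 8.98e-06), a scale that understates the change of a gene this low. Of the 10385 genes tested, 120 had a lower log2 change and 16 a lower ratio of mean TPM. Rhbg (ENSMUSG00000104445), an ammonium transporter of the Rh family, had 0.63, 0.56 and 1.12 TPM in the CCl4 livers, against 1.69, 2.56 and 1.89 TPM in the vehicle livers. The groups did not overlap, and Rhbg fell by 0.79 ± 0.20 on the log2 scale (SE; limma adjusted p = 0.00544).

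Rgn and Gulo act in sequence in ascorbate (vitamin C) synthesis, as the gluconolactonase regucalcin and as L-gulonolactone oxidase, which carries out the last step. Rgn (ENSMUSG00000023070) had 140.78, 62.13 and 257.98 TPM in the CCl4 livers, against 552.89, 545.39 and 548.14 TPM in the vehicle livers. The vehicle libraries were nearly equal and the CCl4 libraries spread widely below them; Rgn fell by 2.05 ± 0.45 on the log2 scale (SE; limma adjusted p = 0.00262). Gulo (ENSMUSG00000034450) had 28.56, 28.04 and 61.21 TPM in the CCl4 livers, against 84.29, 113.27 and 103.39 TPM in the vehicle livers. CCl4 replicates 1 and 2 agreed closely, replicate 3 was higher but still under all vehicle libraries, and Gulo fell by 1.42 ± 0.35 (SE; limma adjusted p = 0.00536). The ratio of Gulo to Rgn, chosen after the values were seen, was 0.203, 0.451 and 0.237 in the CCl4 livers and 0.152, 0.208 and 0.189 in the vehicle livers (exact permutation p = 0.2).

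Lect2 (ENSMUSG00000021539), a protein that hepatocytes secrete and whose gene is a target of beta-catenin, had 39.55, 43.83 and 101.83 TPM in the CCl4 livers, against 96.72, 113.67 and 105.74 TPM in the vehicle livers. CCl4 replicate 3 stood within the vehicle range and the other CCl4 libraries far below it. The log2 change was -0.89 ± 0.37 (SE; 95% interval -1.71 to -0.07; limma adjusted p = 0.0563), and without CCl4 replicate 3 Lect2 was called lower at -1.32 (limma adjusted p = 0.000222).

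CCl4 replicate 3 was the highest CCl4 library for every gene but Slc1a2, for which it was the lowest. As a share of the vehicle mean, it held 119% of Axin2, 110% of Rnf43, 96.6% of Lect2, 90.4% of Znrf3 and 84.7% of Lgr5, and 0.535% of Slc1a2. The other 4 genes stood between 45.0% (Tbx3) and 61.0% (Gulo) of the vehicle mean in that library. The same library held the smallest mitochondrial share of the CCl4 livers, 68.1%, and the largest share of the vehicle level of the plasma protein genes, 44.2%, against 20.1% and 22.3% in CCl4 replicates 1 and 2. Their part in the results was not tested. Slc1a2 was at 1.96% and 1.61% of its vehicle mean in CCl4 replicates 1 and 2, well below every other of the 10 genes, of which the next lowest value was 11.3%, Rgn in CCl4 replicate 2.

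**Figure D2:**
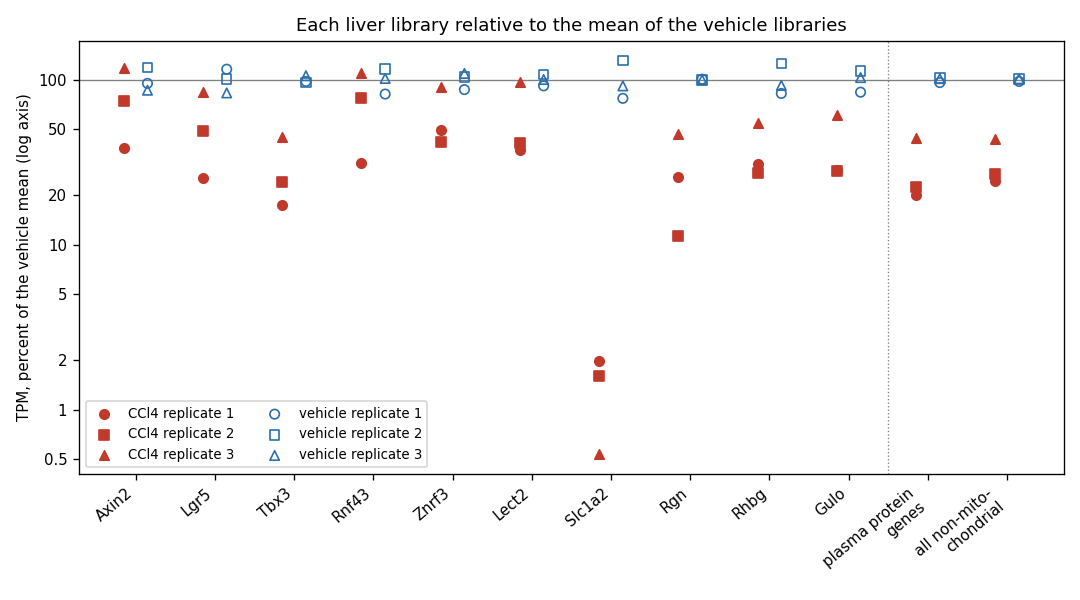
TPM of each liver library as a percentage of the mean of the vehicle libraries, on a log axis, for the 10 genes and, right of the dotted line, for the 12 plasma protein genes and for all non-mitochondrial genes. CCl4 libraries are filled red and vehicle libraries open blue, with a shape for each replicate. Slc1a2 stands alone near 1% in the CCl4 libraries, and the other genes spread from 11.3% to 119%.

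The order of the levels differed between the groups. With CCl4, Rgn, Lect2 and Gulo led at means of 154, 61.7 and 39.3 TPM and overlapped. The Wnt targets and Rhbg followed between 1.90 TPM (Rnf43) and 0.357 TPM (Lgr5), each overlapping the next, and Slc1a2 was last at 0.0767 TPM. With vehicle, Rgn led at 549 TPM, followed by Lect2 at 105 and Gulo at 100.3 TPM, whose libraries overlapped. Slc1a2 was the fourth, at 5.60 TPM and apart from its neighbours, ahead of Rnf43, Rhbg and Tbx3 at 2.61, 2.05 and 1.84 TPM, each overlapping the next. Axin2, Znrf3 and Lgr5 closed the vehicle order at 1.27, 0.907 and 0.673 TPM without overlap.

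Because TPM are shares of a total, the changes were also computed with other scalings. The median change of all genes was -0.59 as deposited, -0.11 with median-ratio scaling, -0.15 with quantile normalization, 0.90 after rescaling without mitochondrial genes and their near copies, and 1.00 relative to the geometric mean of the 12 plasma protein genes. Slc1a2 fell under each: its log2 change was -2.29 with median-ratio scaling, -2.41 with quantile normalization, -2.63 without mitochondrial genes and near copies and -2.29 relative to plasma protein genes. Over the 12 alternatives in which it could be fitted, its limma adjusted p was at most 0.00656, and in the other 4 it did not pass the filter on low TPM. Slc1a2 passed the filter through its vehicle libraries alone under every scaling, so its direction was fixed there. Without a filter it was called lower as well, at -2.59 (limma adjusted p = 0.00656).

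The other genes depended on the scaling in their signs, their calls or their passing of the filter. Lgr5 passed the filter only without mitochondrial genes and near copies, at 0.35 and not called (limma adjusted p = 0.206). Without mitochondrial genes and near copies, 67.8% of the genes tested were called higher and 3.57% lower, and limma called Axin2, Rnf43, Znrf3 and Lect2 higher, by 0.87, 0.92, 0.57 and 0.80 on the log2 scale. Relative to the plasma protein genes, 71.8% of the genes tested were called higher and 2.63% lower, and the same 4 genes were higher, by 0.92, 1.01, 0.62 and 0.97, together with Gulo at 0.44. Tbx3 and Rgn were not called under either of these scalings, at -0.14 and -0.35 without mitochondrial genes and near copies and at -0.02 and -0.18 relative to plasma protein genes. Rhbg was not called either, and its sign turned, at 0.19 and 0.30. With median-ratio scaling the same number of genes was called as in TPM, 5 lower and 0 higher, where 26% of all genes tested were called lower and 18.4% higher. With quantile normalization the counts were 3 lower and 0 higher, against 24.8% and 17.1% of all genes.

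**Figure D3:**
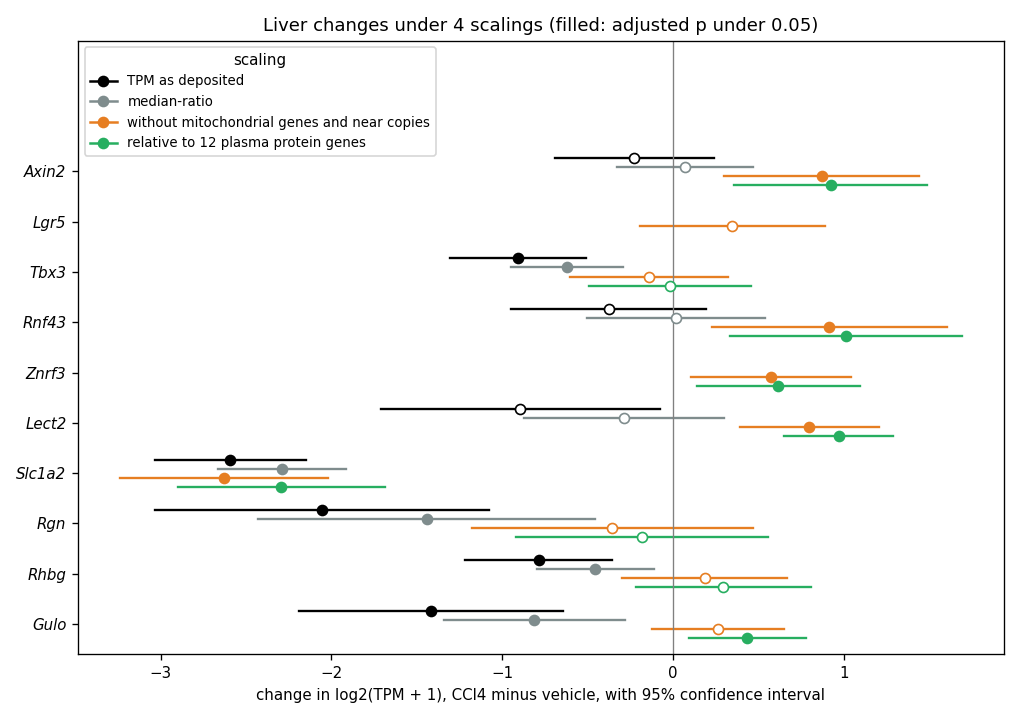
Log2 change (CCl4 minus vehicle, horizontal axis) of each gene with its 95% confidence interval under 4 scalings, filled where the limma adjusted p was under 0.05 and absent where the gene did not pass the filter. Slc1a2 lies left of 0 under all 4 shown; Axin2, Rnf43 and Lect2 lie left of 0 as deposited and right of it under the scalings without mitochondrial genes and relative to plasma protein genes.

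Set per 1000 TPM of the plasma protein mean within each library, Slc1a2 was at 0.220, 0.162 and 0.0274 in the CCl4 livers and at 1.81, 2.89 and 2.04 in the vehicle livers. On the same measure Axin2 was at 0.981, 1.71 and 1.38 in the CCl4 livers and at 0.508, 0.595 and 0.437 in the vehicle livers. Slc1a2 was thus lower and Axin2 higher in each CCl4 library than in any vehicle library (exact permutation p = 0.1 each, the smallest possible). Lect2 had 79.2, 79.1 and 92.9 in the CCl4 livers against 40.6, 44.8 and 42.0 in the vehicle livers and did not overlap, although its TPM had overlapped. Rgn had 282, 112 and 235 in the CCl4 livers against 232, 215 and 218 in the vehicle livers, and overlapped, as did Tbx3. The share of all genes without overlap on this measure was not computed. In the limma fit relative to plasma protein genes, 71.8% of all genes tested were called higher. Their median change was 1.00, beside 0.92 for Axin2 and 0.97 for Lect2, so nothing particular to Axin2 or Lect2 is read from their values.

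Both Lect2 and Slc1a2 have the TCF/LEF letters CTTTGAT, or their reverse complement, in the promoter window that RefSeq's table gives, 250 bases before to 50 after a listed start in the GRCm38.p6 build (the TPM table was made on GRCm39). They are shown because they were the only promoters with a match among the 4 of the 10 genes found in that table (Axin2, Lect2, Rnf43 and Slc1a2, with 5 promoters), and because Slc1a2 was lower under every scaling while Lect2 changed sign between them. The Lect2 window is chr13:56548489-56548788 on the minus strand, with the match 32 bases before the start. The Slc1a2 window is chr2:102706188-102706487 on the plus strand, with the match 207 bases before a start that lies 48199 bases inside the gene's span, so it need not be the start used in liver. Capitals mark the matched letters, here as ATCAAAG.
Lect2: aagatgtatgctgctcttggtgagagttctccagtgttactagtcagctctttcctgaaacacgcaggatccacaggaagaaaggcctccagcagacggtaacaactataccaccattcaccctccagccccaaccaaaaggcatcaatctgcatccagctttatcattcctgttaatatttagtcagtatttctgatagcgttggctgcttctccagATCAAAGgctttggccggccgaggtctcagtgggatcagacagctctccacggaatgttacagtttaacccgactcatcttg
Slc1a2: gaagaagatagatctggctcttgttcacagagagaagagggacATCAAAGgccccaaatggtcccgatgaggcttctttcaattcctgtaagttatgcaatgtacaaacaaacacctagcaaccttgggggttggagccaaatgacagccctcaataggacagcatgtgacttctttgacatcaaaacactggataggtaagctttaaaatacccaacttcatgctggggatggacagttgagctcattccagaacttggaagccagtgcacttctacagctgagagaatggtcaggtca
CTTTGAT was found on either strand in 3.73% of the 32851 promoters of the table. The HNF4A letters AAAGTCC, found in 4.21%, and the TATA box letters TATAAA, found in 13.6%, were in none of the 5 promoters, and the promoters of Axin2 and Rnf43 held none of the 3. A match is a description of the letters and says nothing about binding.

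The rest of the Wnt pathway was read from lists of its parts, counted as deposited TPM. Each count in deposited TPM stands against the 51.1% lower and 10.3% higher calls and the median of -0.59 of all genes tested. Nothing particular to a list is read from any of the counts. Of 23 Wnt ligands and R-spondins, 2 passed the filter: Wnt2, a ligand of liver endothelial cells, rose to 3.39 ± 1.70 TPM in the CCl4 livers, against 0.257 ± 0.131 TPM in the vehicle livers (SD, n = 3 each; log2 change 1.73 ± 0.27; limma adjusted p = 0.000451), and Wnt5b fell by 1.10 on the log2 scale. Wnt2 passed the filter through its CCl4 libraries alone and Wnt5b through its vehicle libraries alone, so the filter fixed both directions. Wnt2 was called higher under all 5 scalings, with its direction fixed by the filter in each. The call of Wnt5b was lost without mitochondrial genes and near copies (-0.28) and relative to plasma protein genes (-0.14). Rspo3, the R-spondin of central vein endothelium, was below the filter in deposited TPM, at 1.63, 1.09 and 0.63 TPM in the CCl4 livers and 0.07, 0.08 and 0.11 TPM in the vehicle livers. It passed and was called higher without mitochondrial genes and near copies (2.38) and relative to plasma protein genes (2.22). Of all genes tested, 67.8% and 71.8% were higher there. Rspo3 passed through its CCl4 libraries alone, so the filter fixed its direction. Wnt9b, another endothelial ligand, stood at 0.33, 0.51 and 0.12 TPM in the CCl4 livers and 0.02, 0.01 and 0 TPM in the vehicle livers (exact permutation p = 0.1 for each of the 2 genes). All 12 endothelial markers tested were higher too, with summed values as given above; their part in these results was not tested.

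Of 17 receptors and co-receptors, 7 passed, of which 5 fell, 1 rose and 1 was not called, with a median of -0.59, the same as that of all genes, of which 51.1% were lower. Relative to plasma protein genes 0 receptors were lower and 5 higher, where 2.63% of all genes tested were lower and 71.8% higher. Lgr4, a paralog of Lgr5 and also an R-spondin receptor, fell to 2.56 ± 1.22 TPM in the CCl4 livers, against 8.91 ± 0.334 TPM in the vehicle livers (SD, n = 3 each; log2 change -1.53; limma adjusted p = 0.000572). Fzd8, Lrp5 and Ryk fell by 0.89, 0.85 and 0.51, and Fzd4, a Frizzled receptor known from endothelial cells, rose by 0.60 on the log2 scale. Fzd8 passed the filter through its vehicle libraries alone, so its direction was fixed. Relative to plasma protein genes, Lgr4 and Fzd8 were at -0.02 and -0.02 and not called, and Lrp5 and Ryk turned higher, at 0.88 and 1.17. Of 13 secreted and membrane inhibitors, 2 passed and both fell, the Wnt deacylase Notum by 0.96 and the Dickkopf co-receptor Kremen1 by 0.54, and neither was called with median-ratio scaling. Kremen1 passed the filter through its vehicle libraries alone, so its direction in TPM was fixed. Relative to plasma protein genes Kremen1 was called higher at 0.63, and Notum stood at 0.66 without a call.

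Of 13 genes of beta-catenin and its destruction complex, 11 passed, of which 3 fell, 0 rose and 8 were not called, with a median of -0.38. Ctnnb1, beta-catenin itself, had 55.6 ± 11.7 TPM in the CCl4 livers and 75.6 ± 10.7 TPM in the vehicle livers (SD, n = 3 each; log2 change -0.45 ± 0.30; limma adjusted p = 0.207). The ubiquitin ligase adaptor Btrc, the kinase Gsk3a and the scaffold Axin1, the paralog of Axin2, fell by 1.15, 0.81 and 0.50, and Tnks, which marks axins for degradation, stood at -0.38 (limma adjusted p = 0.0755). Under the scalings without mitochondrial genes and relative to plasma protein genes, 10 members of this list were called higher and 0 lower, in both cases. Of all genes tested, 67.8% and 71.8% were called higher under these scalings, in that order. Of 8 TCF/LEF factors and co-activators, 4 passed: Bcl9l fell by 0.94 but stood at 0.36, not called, relative to plasma protein genes, and Tcf7l2, a TCF factor of hepatocytes, was not called at -0.29 (limma adjusted p = 0.199).

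Of 9 other Wnt target genes, 6 passed, of which 5 rose and 1 fell, with a median of 1.06, where 10.3% of all genes tested were higher and 51.1% lower. Cd44 and Nkd1 passed the filter through their CCl4 libraries alone, so 2 of the 5 rises had their direction fixed by it. Cyclin D1 (Ccnd1) rose to 18.1 ± 3.74 TPM in the CCl4 livers, against 1.80 ± 0.697 TPM in the vehicle livers (SD, n = 3 each; log2 change 2.78; limma adjusted p = 2.86e-05). The adhesion receptor Cd44 and the pathway inhibitor Nkd1 rose by 2.40 and 1.08, and Notum, counted here as well, fell. Ccnd1, Cd44 and Nkd1 were called higher under all 5 scalings, with the direction of Cd44 and Nkd1 fixed by the filter in each. Axin2, Rnf43 and Znrf3 were called higher under 2 of the scalings, which called 67.8% and 71.8% of all genes tested higher. The 8 stellate and fibroblast markers that passed the filter, summed over the list to 97.1 to 201 TPM in the CCl4 livers and 8.88 to 12.5 TPM in the vehicle livers, rose too, and their part in these results was not tested.

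**Figure D4:**
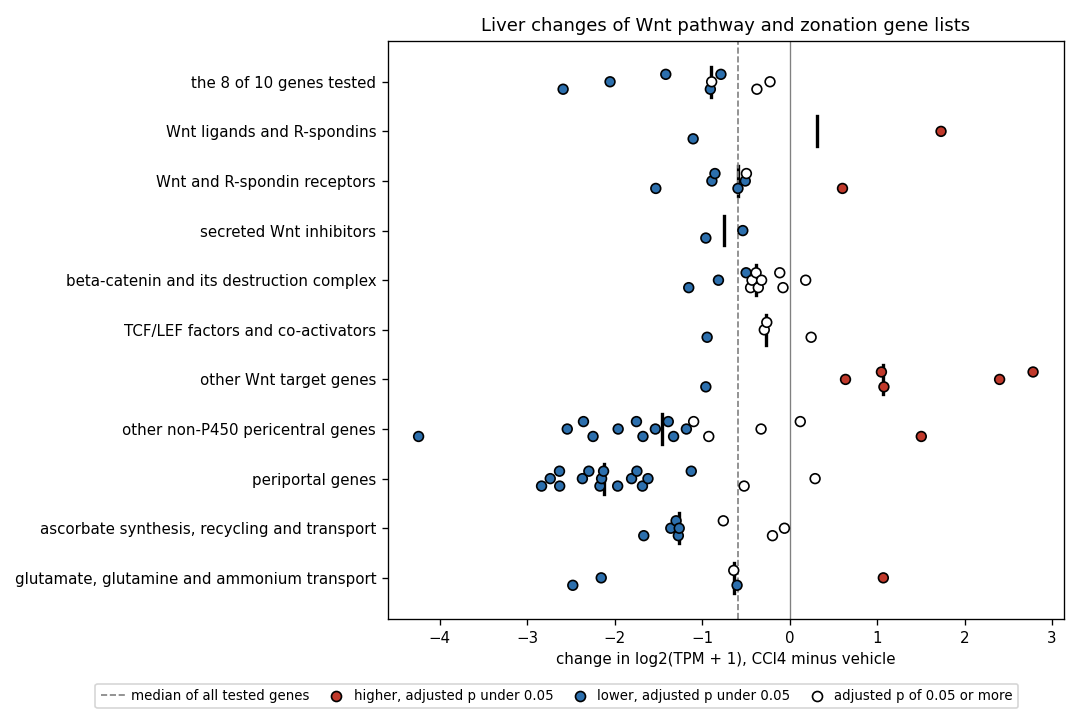
Log2 change (CCl4 minus vehicle, horizontal axis) in deposited TPM of the 8 genes tested and of each list's genes that passed the filter, coloured red where called higher, blue where called lower and white where not called. Short black bars are list medians and the dashed line is the median of all genes tested, -0.59. Other Wnt target genes lie mostly right of 0, and pericentral and periportal genes mostly left of the dashed line.

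Of 17 other pericentral genes that encode no P450, 16 passed, of which 11 fell, 1 rose and 4 were not called, with a median of -1.46. Of all genes tested, 51.1% were lower, with a median of -0.59. Relative to plasma protein genes, 2 of the list were lower and 7 higher, where 2.63% of all genes tested were lower and 71.8% higher. Oat, ornithine aminotransferase, fell to 7.21 ± 0.397 TPM in the CCl4 livers, against 155 ± 15.8 TPM in the vehicle livers (SD, n = 3 each; limma adjusted p = 1.51e-06), and was called lower under all 5 scalings, as Slc1a2 was. Glul, glutamine synthetase, which lies next to Slc1a2 in glutamate use, fell by 1.54 in deposited TPM, but stood at 0.14 without mitochondrial genes and near copies and at 0.31 relative to plasma protein genes, not called in either. Avpr1a, a vasopressin receptor, fell by 1.96 and the paraoxonase Pon1 changed by -2.36 on the log2 scale, while the glutathione transferase Gstm3 rose to 256 ± 247 TPM in the CCl4 livers, against 67.1 ± 7.48 TPM in the vehicle livers (SD, n = 3 each; limma adjusted p = 0.0273). Periportal genes, from the other side of the lobule, fell in 15 of 17 cases, with 2 not called and a median of -2.13, where 51.1% of all genes tested were lower. Relative to plasma protein genes, 5 periportal genes were lower and 3 higher, again beside 2.63% and 71.8% of all genes tested. Ass1, an enzyme of the urea cycle, fell by 2.63, and Etnppl, Arg1 and Sds fell by 2.74, 2.30 and 2.13. Relative to plasma protein genes, Etnppl, Arg1, Ass1 and Pon1 were still called lower, at -0.99, -0.42, -0.75 and -0.48, while Sds (-0.27) and Avpr1a (-0.42) were not called. Ass1 also lost its call with quantile normalization, at -0.87. Being called lower under all 5 scalings was not particular to Oat and Slc1a2. Pon1, the periportal genes Etnppl, Arg1, Cps1 and Pck1, and the amino acid transporter Slc38a4 were so called too.

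The pathways in which the pericentral genes act were read from 2 further lists. Of 8 other genes of ascorbate synthesis, recycling and transport, all passed, of which 5 fell and 3 were not called, with a median of -1.27 beside -2.05 for Rgn and -1.42 for Gulo. Of all genes tested, 51.1% were lower, with a median of -0.59. Relative to plasma protein genes 0 of the list were lower and 6 higher, where 2.63% of all genes tested were lower and 71.8% higher. Akr1a1, the aldehyde reductase before Rgn in the pathway, fell by 1.27, the ascorbate transporter Slc23a1 by 1.26 and the reductases Gsto1 and Glrx by 1.67 and 1.30, while Ugdh, which makes UDP-glucuronate, was not called at -0.76 (limma adjusted p = 0.0932). Among those 6, Akr1a1, Glrx and Ugdh were at 0.60, 0.47 and 1.09, beside 0.44 for Gulo, and Gsto1 and Slc23a1 were not called at 0.16 and 0.48. Of 12 other transporters of glutamate, glutamine and ammonium, 5 passed, of which 3 fell, 1 rose and 1 was not called, with a median of -0.64 beside -0.59 for all genes. Relative to plasma protein genes 1 transporter was lower and 4 higher, where 2.63% of all genes tested were lower and 71.8% higher. The glutamine and amino acid transporters Slc38a4, Slc38a3 and Slc38a7 fell by 2.48, 2.16 and 0.60, though relative to plasma protein genes Slc38a4 alone of these 3 was called lower (-0.61) and Slc38a7 was called higher (0.94). Slc1a4, a neutral amino acid transporter of the same family as Slc1a2, rose to 2.76 ± 0.837 TPM in the CCl4 livers, against 0.763 ± 0.0551 TPM in the vehicle livers (SD, n = 3 each; log2 change 1.07; limma adjusted p = 0.00104), and was called higher under all 5 scalings. It passed the filter through its CCl4 libraries alone and Slc1a2 through its vehicle libraries alone, so both directions in TPM were fixed by the filter.

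For each tested gene, the 2 genes whose log2 values relative to the vehicle mean ran closest over the 6 liver libraries were found by root mean square (RMS) difference. For Slc1a2 these were Slc22a28 and Mcm10, at 0.153 and 0.210, the loosest matches of the 8 genes. For Rgn they were Sec14l4 and Acad11, at 0.0185 and 0.0473, and for Gulo P4hb and St6gal1, at 0.0393 and 0.0527. Lect2 ran closest to Selenoi and Mttp, at 0.0577 and 0.0721, and Tbx3 to Lsm14b and Rdh10, at 0.0330 and 0.0391. Rhbg ran closest to Gmcl1 and Kdm5d, at 0.0336 and 0.0379, Axin2 to Bms1 and Erp29, at 0.0554 and 0.0611, and Rnf43 to Junb and Trim7, at 0.0425 and 0.0494. These are 6 libraries that differ mainly by treatment, so a near match is a description only.

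In the skin cells, Lect2 and Gulo were at or near 0, Rgn and Slc1a2 exceeded a TPM of 1 in 1 library each, and Rhbg was in the range of the Wnt targets. Lect2 was listed at 0, 0 and 0.04 TPM in the CCl4 skin libraries and at 0 in all 3 vehicle skin libraries, and Gulo did not exceed 0.43 TPM in any skin library. Axin2 had 6.73, 1.82 and 0.07 TPM in the CCl4 skin libraries, against 4.78, 1.53 and 0.92 TPM in the vehicle skin libraries, so libraries numbered 1 were the highest in both groups. Those 2 libraries also listed more genes above 0 than the other 4, 28357 with CCl4 and 28870 with vehicle against 21328 to 23494. Rnf43 had 7.29, 2.31 and 0.47 TPM with CCl4, against 4.16, 6.75 and 0.45 TPM with vehicle, and Znrf3 had 3.72, 0.25 and 1.95 TPM with CCl4, against 1.85, 3.49 and 1.26 TPM with vehicle. Both overlapped fully between treatments.

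Axin2, Rnf43, Znrf3 and Rhbg passed the filter in skin, and 0 of these 4 were called. Of 13767 genes tested in skin, limma called 0%, with 175 lower and 113 higher at an unadjusted p under 0.05, and 0 or 1 called over the alternatives. The log2 changes were -0.09 for Axin2, -0.17 for Rnf43, -0.24 for Znrf3 and 0.50 for Rhbg (limma adjusted p = 1.00 each). Leaving out single libraries turned the sign of Axin2, which was 0.62 without CCl4 replicate 3 and 0.37 without vehicle replicate 1. Rhbg had 5.76, 2.93 and 1.46 TPM in the CCl4 skin libraries, against 0.95, 2.02 and 2.90 TPM in the vehicle skin libraries, and overlapped. Slc1a2 was below the filter in skin, at 0.28, 0.27 and 1.95 TPM in the CCl4 libraries and 0.21, 0.03 and 0.08 TPM in the vehicle libraries. It was the 1 gene of the 10 whose skin groups did not overlap, where 5.28% of all genes tested did not (exact permutation p = 0.1, the smallest possible). That share is over genes past the filter, and the share among genes as low as Slc1a2 was not computed. No skin effect is read from Slc1a2.

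**Figure D5:**
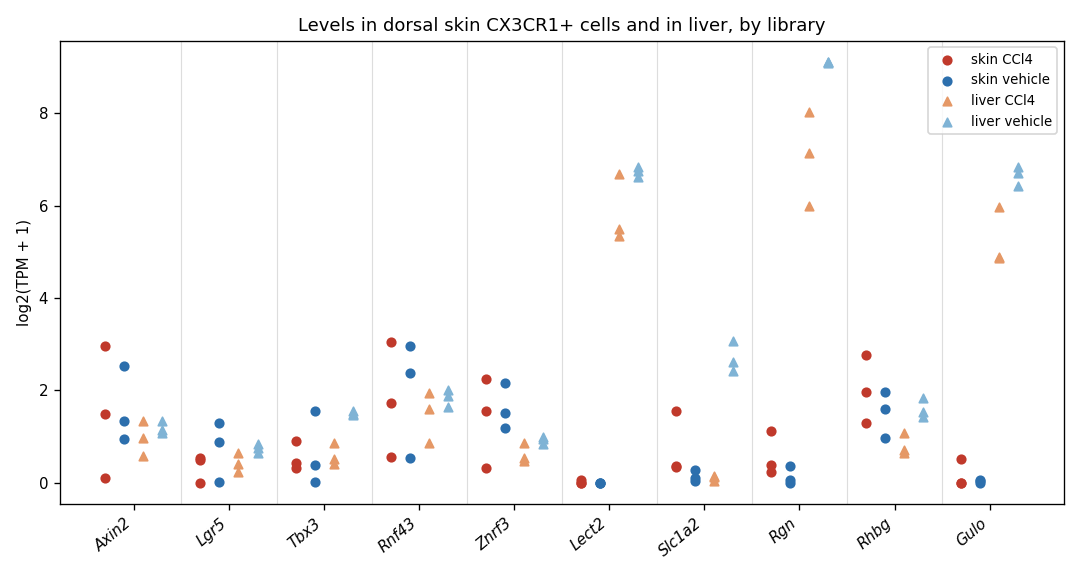
Levels as log2(TPM + 1) of the 10 genes by library, with skin as circles and liver as triangles, and CCl4 left of vehicle within each tissue. Lect2, Rgn and Gulo are high in liver and near 0 in skin. Axin2, Rnf43, Znrf3 and Rhbg overlap between the tissues and spread more widely in skin.

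Whether the effect of CCl4 differed between liver and skin could be tested for Axin2, Rnf43 and Rhbg, which passed the filter in both. In 1 limma model of the 4 groups, the liver effect minus the skin effect was -0.14 ± 0.85 for Axin2 (SE; adjusted p = 0.950), -0.20 ± 0.93 for Rnf43 (adjusted p = 0.936) and -1.29 ± 0.56 for Rhbg (adjusted p = 0.223). None of the 3 was called, where limma called 0.216% of the 9255 genes tested in both tissues. The 95% interval was -1.97 to 1.70 for Axin2, wide enough to hold a difference larger than any effect measured on it, and -2.50 to -0.08 for Rhbg before adjustment. Tissue, strain and library method differ together between liver and skin and cannot be told apart.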

How the data were processed

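The authors deposited TPM values in 1 table of 57180 gene rows and 12 columns, each of which matched a sample label. Per the submitters' processing notes, fastp, HISAT2, StringTie and RSEM were used with GRCm39; the sources used here give no version, order or role for them. TPM hold no depth. Genes at 0 are called listed at 0, since an estimate may have failed. The labels give 1 poly(A) protocol for all libraries, which does not describe smart-seq, and the sources used here do not say how skin cells were sorted.

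Symbols came from the name tables, which matched 51884 of the 57180 gene IDs. Values were analysed as log2(TPM + 1), a pseudocount of 1, with limma 3.58.1 in R 4.3.3 (lmFit, eBayes with trend, two-sided) over all genes that reached a TPM of 1 in 3 or more of a tissue's 6 libraries. A call is a p under 0.05 after Benjamini-Hochberg adjustment. Liver and skin were fitted separately, and their effects were compared in 1 model of 4 group means. Members below the filter have a two-sided exact permutation test, whose smallest p is 0.1. Near copies of mitochondrial genes were 16 genes with at least 80% of their transcript covered at 90% identity or more, of which 12 were above 0 TPM. Scripts were tested on simulated data. The members, lists and alternatives were chosen with earlier results of these data known, so none of them is independent evidence.

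From each list, up to 4 members with the lowest p were named, with Wnt2, Wnt9b, Rspo3, Lgr4, Ctnnb1, Tcf7l2, Glul, Ugdh, Akr1a1, Slc1a4 and Ass1, and also Fzd4 and Gstm3, the single rises of their lists, which were chosen after their values were seen. Cps1 and Pck1, periportal genes called lower under every scaling, were also chosen after their values were seen. The alternatives were pseudocounts of 0.1 and 5, no filter, a filter at a TPM of 5, the 4 other scalings, a replicate block, 1 fit over all 12 libraries and leaving out each library. Leaving out both skin libraries numbered 1 was added after seeing the data.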

Additional observations from a re-analysis of the deposited data

Results flagged for a closer look

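The Slc1a2 values with CCl4 lay below the vehicle values in liver and above them in skin. In skin, 1 of the 10 genes had groups that did not overlap, beside 5.28% of all genes tested there. That share is over genes past the filter, which Slc1a2 did not pass, and no skin effect is read from Slc1a2. In liver all CCl4 libraries were below all vehicle libraries, and in skin all CCl4 libraries, at 0.28, 0.27 and 1.95 TPM, were above all vehicle libraries, at 0.21, 0.03 and 0.08 TPM. The liver effect minus the skin effect was -3.20 on the log2(TPM + 1) scale. This difference was not tested, because Slc1a2 did not pass the filter on low TPM in skin. The skin values rest on 1 library above a TPM of 1, CCl4 replicate 3, which also had the lowest summed TPM of the CX3CR1+ cell markers, 26.5 against 338 and 481 in the other CCl4 skin libraries and 912 to 2272 in the vehicle skin libraries.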

How the results depend on the processing

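Slc1a2 stayed called lower in liver in all 12 alternatives that could be fitted, with changes of -5.01 (pseudocount of 0.1) to -1.05 (pseudocount of 5). Where the filter was applied, it fixed this direction, since Slc1a2 passed through its vehicle libraries alone. Only the fit without a filter, at -2.59, left the direction free. In place of 5 of the 10 genes lower, limma called 3 with a filter at a TPM of 5, 3 with quantile normalization, 1 without mitochondrial genes and near copies, 1 relative to plasma protein genes, 3 in the fit over all 12 libraries and 3 to 6 with 1 library left out, where Tbx3 and Slc1a2 drop below the filter without any vehicle library. The 3 with a filter at a TPM of 5 were Rgn, Gulo and Lect2, the only ones of the 10 genes that passed it. Of all genes tested, 24.8% were lower with quantile normalization, 3.57% without mitochondrial genes and near copies and 2.63% relative to plasma protein genes. For the other settings the share of all genes called lower is not given here. Nothing particular to the 10 genes is read from those counts. In place of 0 higher, limma called 4 without mitochondrial genes and near copies and 5 relative to plasma protein genes, where 67.8% and 71.8% of all genes tested were higher. Signs turned for Axin2 (0.072 with median-ratio scaling, 0.87 without mitochondrial genes and near copies, 0.92 relative to plasma protein genes), Rnf43 (0.019, 0.92 and 1.01 under the same 3), Lect2 (0.36 with quantile normalization, then 0.80 and 0.97), Rhbg (0.19 and 0.30) and Gulo (0.26 and 0.44). Tbx3 lost its call in 3 alternatives, Rgn in 3, and Gulo and Rhbg in 1 each beside those turns. The cause was not tested, beyond what the scalings do by construction.

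Of all genes in liver, 4084 were called with a filter at a TPM of 5 and 1736 in the fit over all 12 libraries, in place of 6377, and 4454 to 7053 with 1 library left out. The counts of list members called, higher and lower together, were as follows. With a filter at a TPM of 5 they were 0 ligands in place of 2, 3 receptors in place of 6, 1 inhibitor in place of 2, 1 gene of the beta-catenin list in place of 3, 0 TCF/LEF factors in place of 1, 3 other targets in place of 6 and 2 transporters in place of 4. Without a filter they were 5 ligands and 5 inhibitors. In the fit over all 12 libraries they were 1 ligand, 1 receptor, 0 inhibitors, 0 of the beta-catenin list, 0 TCF/LEF factors, 1 other target, 7 pericentral genes in place of 12, 2 ascorbate genes in place of 5 and 2 transporters. With median-ratio scaling they were 3 receptors, 0 inhibitors and 3 ascorbate genes, and with quantile normalization 1 inhibitor, 7 pericentral genes and 0 ascorbate genes. Without mitochondrial genes and near copies, and relative to plasma protein genes, 10 of the beta-catenin list and 5 TCF/LEF factors were called, all higher, and relative to plasma protein genes 8 periportal genes, 5 lower and 3 higher, in place of 15 lower. Under these scalings, in that order, 67.8% and 71.8% of all genes tested were called higher, and 3.57% and 2.63% lower. With 1 library left out, the counts were 1 ligand in each case, 2 to 6 receptors, 1 to 2 inhibitors, 1 to 6 of the beta-catenin list, 2 to 6 other targets (2 without CCl4 replicate 1) and 2 to 4 transporters.

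In skin the fit over all 12 libraries called 1 gene and every other alternative 0. Signs of uncalled genes turned there for Axin2 (0.034 with a pseudocount of 5, 0.015 with quantile normalization, -0.81 to 0.62 with 1 library left out), Rnf43 (0.067 with quantile normalization, -0.88 to 0.44 with 1 library left out), Znrf3 (-0.68 to 0.28 with 1 library left out) and Rhbg (-0.14 without both libraries numbered 1). The liver effect minus the skin effect of Axin2 was 0.17 with a pseudocount of 0.1 and 0.97 without mitochondrial genes and near copies, and that of Rnf43 1.09 in that setting.

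Replicate numbers are shared between treatments, but same-numbered liver libraries did not deviate together (r = -0.04, 0.08 and 0.07 over genes), and same-numbered skin libraries only in part (r = 0.59, 0.09 and 0.35), so the numbers are not taken as pairs. With a replicate block 6 of the 10 genes were lower, Lect2 among them at -0.89 (limma adjusted p = 0.0425). Of the 10385 genes tested in liver, 6493 were called in either direction with the block, and in skin 0 were called. Nothing particular to the 10 genes is read from the count of 6. TPM hold no depth, so how many reads support the low genes is unknown.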
